A study of Mus musculus with 6 samples.

Results

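The genes described here encode the nuclear subunits of respiratory complex I and the assembly factors named after it, measured on 2-colour microarrays in mouse MN9D cells that overexpressed the transcription factor Lmx1a. Members were the probes whose gene symbol starts with Ndufa, Ndufb, Ndufc, Ndufs, Ndufv, Ndufab or Ndufaf followed by a number. There were 50 such probes among 31769, for 43 genes among 17865 named genes. The subunit names took 39 probes for 35 genes, and the Ndufaf names, which mark assembly factors, took 11 probes for 8 genes and are shown apart. A total of 6 probes, for Ndufaf5, Ndufaf6, Ndufaf7 and Ndufaf8, matched only after older names had been updated. Ndufa12, Ndufb1, Ndufb6 and the subunits encoded in mitochondrial DNA were not analysed here. The set was chosen by name, but with its measured log2 ratios of Lmx1a over control known, so those ratios are given below as a description, without a test.

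Complex I, the NADH:ubiquinone oxidoreductase, takes electrons from NADH, passes them through a flavin and a chain of iron-sulphur clusters in its matrix arm, and pumps protons through its membrane arm. The core subunits hold the redox centres and the proton channels, and the accessory subunits surround and stabilise them. Assembly factors help to build the enzyme and are not part of the finished complex. Dopaminergic neurons are known for their sensitivity to complex I inhibitors such as rotenone and MPP+, and lowered complex I activity has been described in Parkinson's disease.

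The overexpressing cells were MN9D cells, a mouse line of dopaminergic character, transfected with pcDNA3.1(-)-Lmx1a at 6 µg of plasmid. The control cells were MN9D cells given the empty pcDNA3.1(-) in equimolar amount, and both received pBluescript SKII(+) as carrier and were harvested at 90 to 95% confluence. RNA of the Lmx1a cells came in 3 pools of 3 dishes each, and RNA of the control cells in 1 pool of 9 dishes, which served every array. Dyes were swapped within each pool, which gave 6 arrays, and the 2 arrays of a pool were averaged, so that n = 3. The model is a plasmid-driven overexpression in 1 cell line. Separate transfections for the pools are not stated in the labels. Because all 3 ratios share 1 control pool, a deviation of that pool would shift them together and cannot be told apart from an effect of Lmx1a. In such bulk RNA, fewer cells of a type and less RNA per cell cannot be told apart either.

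Lmx1a itself, the check of the labels, had log2 ratios of Lmx1a over control of 1.71, 2.78 and 2.97 in pools 1, 2 and 3. Of the dopaminergic markers, Th, Ddc and Slc18a2 were detected on every array and Slc6a3, the dopamine transporter, was detected on none. Slc18a2, the vesicular monoamine transporter, had log2 ratios of 0.18, 0.15 and 0.26, a mean of 0.20 ± 0.053 (SD, n = 3) that exceeded every complex I mean in size, and Ddc averaged 0.084 ± 0.034 and Th 0.0067 ± 0.16 (SD, n = 3 each). Of the markers of other cell types, 1 of 4 astrocyte, 2 of 3 oligodendrocyte, 1 of 2 microglial and 0 of 3 fibroblast genes were detected on every array, with log2 ratios between -0.060 and 0.024. The part of these markers in the results was not tested. On the dimmest array, that of pool 1 with Lmx1a in Cy3, the Lmx1a channel detected 49.2% of probes, and on the other arrays 60.1% to 67.7%. A spot counted as detected where its mean exceeded the local background median by 2 background standard deviations. In at least 1 channel on every array, 45 of the 50 complex I probes and 14256 of all probes were detected.

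Most complex I subunit genes had slightly less signal in Lmx1a cells than in control cells. The median log2 ratio over the 35 subunit genes, each taken by its brightest probe, was -0.089, against 0.00090 over all 17865 genes and 0.0032 over the 9356 genes detected on every array. The medians in the single pools were -0.082, -0.090 and -0.075. A total of 29 of the 35 subunit genes lay below 0, against 48.5% of all genes, and 22 lay below 0 in all 3 pools, against 14.9%. Counted by probe, 41 of 50 members were below 0, against 49% of all probes, 29 were below 0 in all 3 pools, against 15.8%, and 11 were below 0 on all 6 arrays, against 2.61%. The probes of Ndufa10 and Ndufa4l2 were above 0 on all 6 arrays, against 2.66% of all probes. The ratios were small: the lowest detected subunit, Ndufb2, had 0.886 times its control signal.

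**Figure D1:**
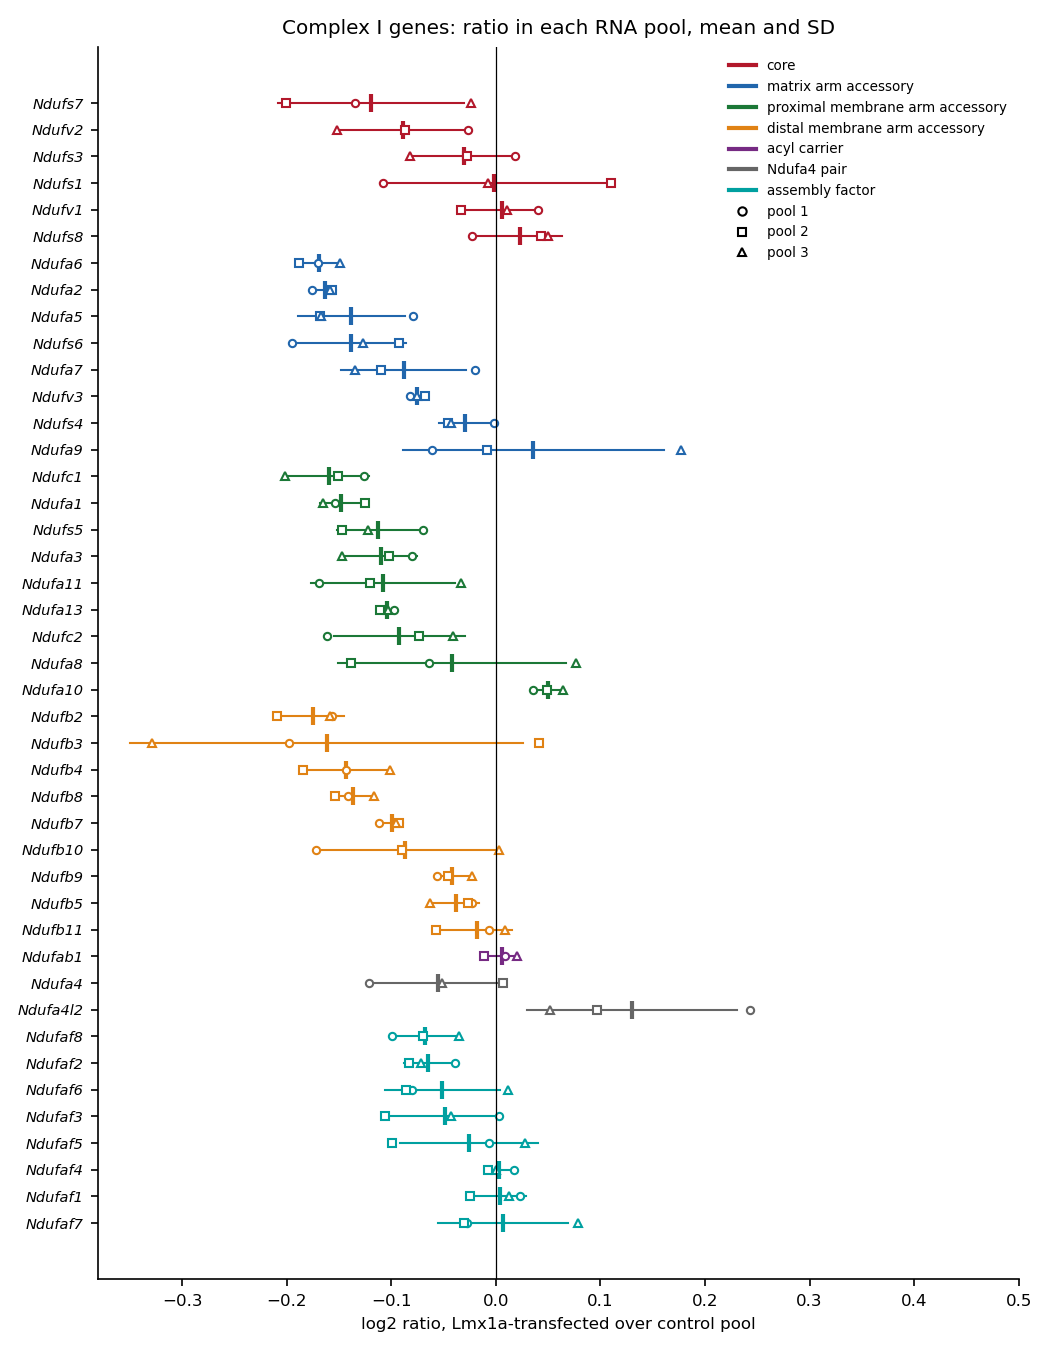
Log2 ratio of Lmx1a over control (x axis) for each of the 43 complex I genes (rows, by role and then by mean); open symbols are the 3 RNA pools, the vertical tick is their mean and the line 1 SD. Most accessory subunits lie left of 0 in every pool, while Ndufa10 and Ndufa4l2 lie right of 0 in every pool.

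No complex I probe passed an adjusted p of 0.05 in the limma fit over the 3 pools, and neither did any other probe, so 0 of 50 stand beside 0% of 31769. At an unadjusted p under 0.05 in the same fit, 26 of 50 members were lower in Lmx1a cells, against 5.56% of all probes, and 2 were higher, against 6.23%. When all 6 arrays were fitted with the replicate as a block, 6 members were called lower at adjusted p under 0.05, against 0.724% of probes, and 0 higher, against 0.353%. Those were the probes of Ndufa1, Ndufa2, Ndufb2, Ndufc1 and Ndufs6 and a probe of Ndufa7. Adding a dye term, a choice made after seeing the data, gave 12 members called lower, against 0.749%, and 0 called higher, against 0.299%. Both fits of 6 arrays counted the 2 arrays of a pool much as separate replicates, although they repeat the same RNA. These counts come from the contrast by which the set was chosen and are not evidence about it.

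The core subunits, which bind the flavin and the iron-sulphur clusters in the matrix arm, lay closer to 0 than the accessory subunits. Their median was -0.016 over 6 genes, with pool medians of -0.025, -0.030 and -0.015. Over the 5 core genes detected on every array, which leaves out Ndufs8, it was -0.031. The 27 accessory subunits had a median of -0.10, with pool medians of -0.097, -0.10 and -0.10, and the 26 of them detected on every array had a median of -0.11. The difference between the groups was not tested.

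Ndufs7, which carries the last cluster before ubiquinone, had the lowest core ratio, with -0.13, -0.20 and -0.024 in the 3 pools and a mean of -0.12 ± 0.089 (SD, n = 3). It was below 0 on all 6 arrays. Ndufv2, which holds a cluster beside the flavin site, had -0.026, -0.087 and -0.15, with a mean of -0.089 ± 0.063 (SD, n = 3). Both genes lay below 0 in every pool, with a spread of more than 0.1 between their pools.

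The other core genes had pools on both sides of 0. Ndufs3, a matrix-arm subunit without a cluster, had 0.018, -0.027 and -0.082. Ndufs1, which carries several clusters, had -0.11, 0.11 and -0.0070, a mean of -0.0013 ± 0.11 (SD, n = 3). Ndufv1, which binds NADH and the flavin, had 0.041, -0.033 and 0.011. Its mean of 0.0062 was the fourth highest among the detected subunits. Ndufs8, a carrier of clusters near the quinone site, was not well above background in either channel on any array and is given no fold.

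Of the 27 accessory subunits 24 lay below 0, and the 3 structural groups had like medians. In the matrix arm 7 of 8 genes lay below 0, with a median of -0.11. In the proximal membrane arm, next to the matrix arm, 8 of 9 lay below 0, with a median of -0.11. In the distal membrane arm all 9 measured genes lay below 0, with a median of -0.10. The exceptions were Ndufa9 in the matrix arm and Ndufa10 in the proximal membrane arm, and Ndufab1, the mitochondrial acyl carrier protein that sits in both arms, had a mean of 0.0060 on a probe not detected on every array.

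Ndufb2, in the distal membrane arm, had the lowest mean of the detected subunits. Its pools gave -0.16, -0.21 and -0.16, a mean of -0.17 ± 0.030 (SD, n = 3), and it was below 0 on all 6 arrays. Ndufa2, a matrix-arm subunit with a thioredoxin-like fold, had -0.18, -0.16 and -0.16, a mean of -0.16 ± 0.011 (SD, n = 3). It was also below 0 on all 6 arrays, and its 3 pools differed by about 0.02. Its dye orientations lay further apart, at -0.11 with Lmx1a in Cy5 and -0.21 with Lmx1a in Cy3.

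Ndufc1 and Ndufa1 are small single-helix subunits of the proximal membrane arm. Ndufc1 had -0.13, -0.15 and -0.20, with a mean of -0.16 ± 0.039 (SD, n = 3). Ndufa1, which is encoded on the X chromosome, had -0.15, -0.12 and -0.17, with a mean of -0.15 ± 0.021 (SD, n = 3). Both were below 0 on all 6 arrays, with no pool on the other side of 0. Ndufa5, a matrix-arm subunit, had -0.079, -0.17 and -0.17, a mean of -0.14 ± 0.051 (SD, n = 3), and was below 0 on all 6 arrays as well.

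Ndufa6 and Ndufb4 had low means and a wide difference between dye orientations. Ndufa6, an LYR-motif protein that binds the acyl carrier in the matrix arm, had -0.17, -0.19 and -0.15 in the pools, a mean of -0.17 ± 0.020 (SD, n = 3). On single arrays it gave -0.38, -0.45 and -0.34 where Lmx1a RNA carried Cy5, and 0.038, 0.069 and 0.039 where it carried Cy3. Its 2 orientations did not overlap. Ndufb4, in the distal membrane arm, had -0.14, -0.18 and -0.10 in the pools. Its arrays gave -0.34, -0.37 and -0.20 in the Cy5 orientation, and 0.053, 0.0058 and -0.0030 in the Cy3 orientation.

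Ndufb3, a distal membrane-arm subunit, had -0.20, 0.042 and -0.33 in the pools, a mean of -0.16 ± 0.19 (SD, n = 3). Pool 2 was on the other side of 0 from the others, and its SD was the widest among the complex I genes. The remaining 16 accessory subunits all had means below 0, between -0.14 for Ndufs6 and -0.018 for Ndufb11, with SDs between 0.0069 and 0.11. Ndufs6 at -0.1381 stood just outside the 8 lowest, of which Ndufa5 at -0.1383 was the last.

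At the other end, Ndufa10, a proximal membrane-arm subunit related to nucleoside kinases, had 0.036, 0.049 and 0.065, with a mean of 0.050 ± 0.014 (SD, n = 3). It was above 0 on all 6 arrays. Ndufa9, a short-chain dehydrogenase-like subunit near the quinone site, had -0.061, -0.0080 and 0.18, so its mean of 0.036 ± 0.13 (SD, n = 3) rested on pool 3, and without pool 3 it was -0.035.

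The promoters below, 250 bases before to 50 after the gene start in RefSeq's table for GRCm38.p6, belong to the lowest detected subunit, to a low subunit for each of 2 motifs, and to Ndufa10, the highest subunit with an entry. They lie at chr6:39592315-39592614 on the plus strand for Ndufb2, chr15:82354242-82354541 on the minus strand for Ndufa6, chr3:51408906-51409205 on the minus strand for Ndufc1 and chr1:92473709-92474008 on the minus strand for Ndufa10. Each reads 5′ to 3′ along the gene, and capitals mark the match to a searched motif.
Ndufb2: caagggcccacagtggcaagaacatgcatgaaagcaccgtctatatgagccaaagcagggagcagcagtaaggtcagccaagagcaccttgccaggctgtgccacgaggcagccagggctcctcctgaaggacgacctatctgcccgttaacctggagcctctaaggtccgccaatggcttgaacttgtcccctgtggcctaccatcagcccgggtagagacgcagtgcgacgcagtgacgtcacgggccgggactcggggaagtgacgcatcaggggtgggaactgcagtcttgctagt
Ndufa6: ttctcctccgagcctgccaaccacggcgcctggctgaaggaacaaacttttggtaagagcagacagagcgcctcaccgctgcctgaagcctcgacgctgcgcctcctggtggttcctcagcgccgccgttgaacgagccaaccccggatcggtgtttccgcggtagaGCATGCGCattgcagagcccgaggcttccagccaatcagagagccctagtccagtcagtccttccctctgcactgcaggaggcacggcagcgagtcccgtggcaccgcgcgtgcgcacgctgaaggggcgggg
Ndufc1: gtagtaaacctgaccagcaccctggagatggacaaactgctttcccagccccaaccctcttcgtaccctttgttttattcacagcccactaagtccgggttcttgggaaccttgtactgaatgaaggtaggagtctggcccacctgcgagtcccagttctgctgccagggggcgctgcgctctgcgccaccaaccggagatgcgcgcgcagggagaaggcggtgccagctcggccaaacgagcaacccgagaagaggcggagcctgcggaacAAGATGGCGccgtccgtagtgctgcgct
Ndufa10: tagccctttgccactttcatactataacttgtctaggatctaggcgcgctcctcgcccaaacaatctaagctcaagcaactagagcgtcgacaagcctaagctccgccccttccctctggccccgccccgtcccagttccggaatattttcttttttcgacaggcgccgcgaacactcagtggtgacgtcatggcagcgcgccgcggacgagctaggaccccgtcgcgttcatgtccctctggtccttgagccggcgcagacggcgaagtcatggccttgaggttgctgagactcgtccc
The motifs, searched on both strands, were GCGCATGC, the core of the NRF1 site, CCGGAAG, an ETS-family site of the kind GABPA binds, and AAGATGGCG, a YY1 site. NRF1, GABPA and YY1 are known regulators of nuclear genes for mitochondrial proteins.

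Of the 43 members 38 matched a promoter by symbol. The NRF1 core was present in 5 of the 38, or 13.2%, against 3.05% of the 27025 genes in the table. It was found for Ndufa6, Ndufa8, Ndufa11, Ndufaf4 and Ndufaf5, whose mean log2 ratios ran between -0.17 and 0.0032. The ETS letters were present in 5, or 13.2%, against 9.93%. The YY1 letters were present in 6, or 15.8%, against 1.64%, for Ndufa9, Ndufc1, Ndufs4, Ndufs6, Ndufs7 and Ndufaf8, with mean log2 ratios between -0.16 and 0.036. At least 1 motif was present in 15 members, or 39.5%, against 13.57% of genes. Median GC content was 59.3% in the member promoters and 52.7% in all 32851 promoters. Low ratios occurred with a match, as for Ndufc1, and without one, as for Ndufb2, and ratios above 0 likewise with a match, as for Ndufa9, and without one, as for Ndufa10. A match is a description of the letters, not a binding site.

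The dye orientation was examined across the set, since it was a measure by which the members had not been chosen. Log2 Cy5 over Cy3 is the difference between the orientations divided by their number. In the limma fit 6 of the 50 probes were called dye-biased, against 6.8% of all probes, and all 6 were brighter in Cy3, against 4.15%, with 0 brighter in Cy5, against 2.65%. They were the probe of Ndufa6 with an adjusted p of 0.00321, the probes of Ndufb7 and Ndufa13, the brighter probe of Ndufa3 and both probes of Ndufb4. The highest adjusted p among them was 0.0369, for Ndufa13. The share of 6.8% covers dim probes, whereas 45 of the 50 members were detected on every array. Fitted over the 14256 probes detected on every array alone, limma called 1944, of which 1120 had more Cy3 and 824 more Cy5 signal. An excess of members over detected probes can therefore not be read from these counts. With plain background subtraction 1 probe on the whole array was called dye-biased, against 2160 in the main fit over all probes, so these calls depend on the background correction. Over these 6 probes, Lmx1a over control averaged between -0.39 and -0.20 in the Cy5 orientation and between -0.0050 and 0.073 in the Cy3 orientation. Averaging the orientations removes an additive dye effect. In the fit of all 6 arrays with a replicate block and a dye term, the probes of Ndufa6 and Ndufa13, a probe of Ndufa3 and both probes of Ndufb4 were among the 12 members called lower, and that of Ndufb7 was not. Without them the median of the other 30 subunit genes was -0.081, and 24 of the 30 lay below 0. Over all 35 subunit genes the median was -0.061 with Lmx1a in Cy5 and -0.068 with Lmx1a in Cy3.

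**Figure D2:**
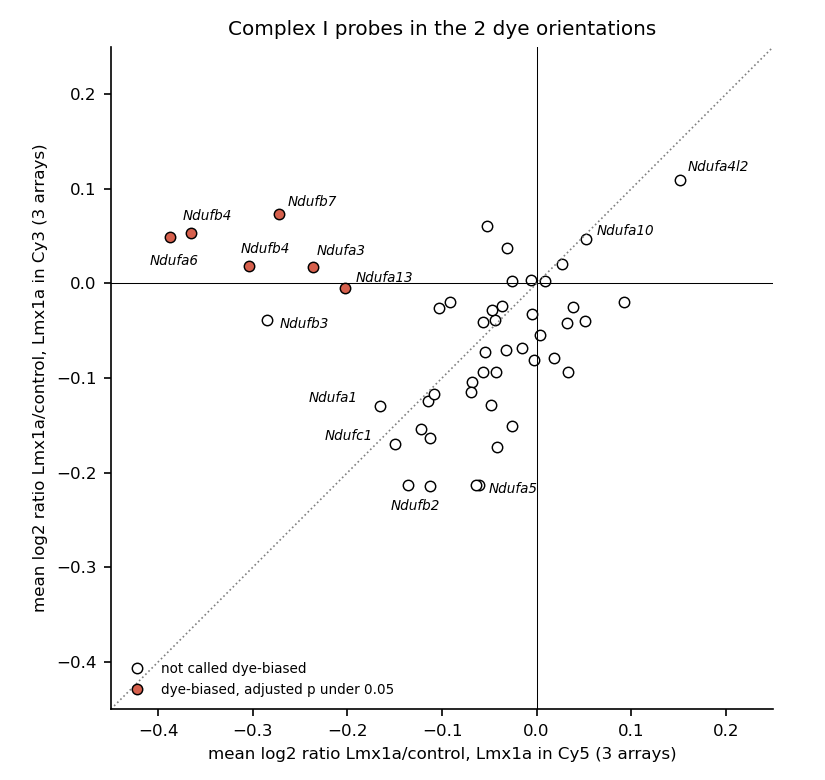
Mean log2 ratio of Lmx1a over control for each of the 50 complex I probes, with Lmx1a in Cy5 (x axis, 3 arrays) and with Lmx1a in Cy3 (y axis, 3 arrays); the dotted line marks equal values. The 6 filled points, called dye-biased by limma at adjusted p under 0.05, lie far left and near 0 on the y axis, whereas Ndufb2, Ndufc1 and Ndufa1 lie below 0 on both axes.

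Genes with several probes showed how far the probes of a gene differed. Such probes shared their arrays, RNA pools and control pool, so their agreement is no independent check of the ratios. Both probes of Ndufb4, called dye-biased above, had low ratios, at -0.14 and -0.16. The probes of Ndufa7, a matrix-arm subunit, gave -0.088 and -0.14, and both were below 0 on all 6 arrays. The probes of Ndufa3 gave -0.11 and -0.030, and those of Ndufb11 -0.018 and -0.064, with the brighter probe first. The sign was the same for all probes of a gene except for Ndufaf4. RefSeq lists related loci or pseudogenes for Ndufab1, Ndufb4, Ndufs5, Ndufs6 and Ndufa11, and their probes may bind those transcripts too, so these values are uncertain.

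Ndufa4 and Ndufa4l2 carry complex I names but are a special pair: Ndufa4 has been reassigned to complex IV, and Ndufa4l2 is its hypoxia-induced relative. Ndufa4 had -0.12, 0.0070 and -0.051, a mean of -0.055 ± 0.064 (SD, n = 3). Ndufa4l2 had 0.24, 0.097 and 0.052, a mean of 0.13 ± 0.10 (SD, n = 3), the highest of all members. The pools of Ndufa4l2 were all above 0 and did not overlap with those of Ndufa4.

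The 8 assembly factors named Ndufaf had a median nearer 0 than that of the accessory subunits, and their pool medians lay further apart. Their probes were also dimmer, with a median log2 brightness of 7.0, against 9.6 for the accessory subunits. The part of brightness in this gap was not tested. The median log2 ratio of the assembly factors was -0.037, with pool medians of -0.017, -0.077 and 0.0059, and 5 of the 8 genes lay below 0. This median depended on the processing: it was -0.078 with plain background subtraction, against -0.0999 for the subunits under the same setting, and -0.0058 without pool 2. Ndufaf8, a partner of the arginine hydroxylase Ndufaf5, had -0.099, -0.070 and -0.035. Ndufaf2, which sits on an assembly intermediate in the place of Ndufa12, had -0.039, -0.083 and -0.071, and these 2 genes were the only assembly factors below 0 in all 3 pools by their brightest probe. Ndufaf6 had -0.080, -0.086 and 0.012. Ndufaf3, which binds Ndufaf4 in the early matrix-arm intermediate, had 0.0030, -0.11 and -0.043 on a probe not detected on every array. Pools of both genes lay on both sides of 0.

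Ndufaf5, which hydroxylates an arginine of Ndufs7, had -0.0066, -0.099 and 0.028. Ndufaf4 had 0.017, -0.0077 and -0.00010. Ndufaf1, which acts on the membrane arm, had 0.023, -0.025 and 0.013. Ndufaf7, a protein arginine methyltransferase, had -0.027, -0.030 and 0.078. These 4 genes had pools on both sides of 0 and means between -0.026 and 0.0069. The other complex I assembly factors measured, not named Ndufaf, had a median of 0.0069 over 8 genes, of which 3 lay below 0. They ran between -0.072 for Dmac1, a membrane-arm assembly factor, and 0.048 for Acad9, whose pools gave -0.080, 0.18 and 0.042. Next above Dmac1 came Tmem186, with a mean of -0.024.

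Subunit genes of other respiratory complexes lay in the same range. Of 39 genes of complexes II, III and IV and ATP synthase, 30 lay below 0, with a median of -0.076. Complex IV, cytochrome c oxidase, had 8 of 9 below 0 and a median of -0.12. Complex III had 8 of 9 below 0 and a median of -0.055, and ATP synthase 13 of 17 and -0.071. Complex II, the succinate dehydrogenase, had 1 of 4 below 0 and a median of 0.014. The lowest of these genes were Atp5mpl and Atp5k, small ATP synthase subunits, with means of -0.22 ± 0.048 and -0.18 ± 0.019 (SD, n = 3 each), and the highest was Atp5b, the catalytic beta subunit, with 0.072 ± 0.045 (SD, n = 3).

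Negative ratios were not limited to the respiratory chain. Cytosolic ribosomal proteins had 61 of 69 genes below 0 and a median of -0.066, and mitochondrial ribosomal proteins 56 of 78 and -0.028. Of 12 regulators of mitochondrial biogenesis 6 lay below 0, with a median of 0.0030. Gabpa, whose ETS letters were searched above, had 0.074, 0.25 and 0.12, a mean of 0.15 ± 0.094 (SD, n = 3). Esrra, an orphan nuclear receptor of energy metabolism, averaged -0.028 ± 0.025 and Tfam, which packages and transcribes mitochondrial DNA, -0.026 ± 0.055 (SD, n = 3 each). No difference between these lists and complex I was tested.

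**Figure D3:**
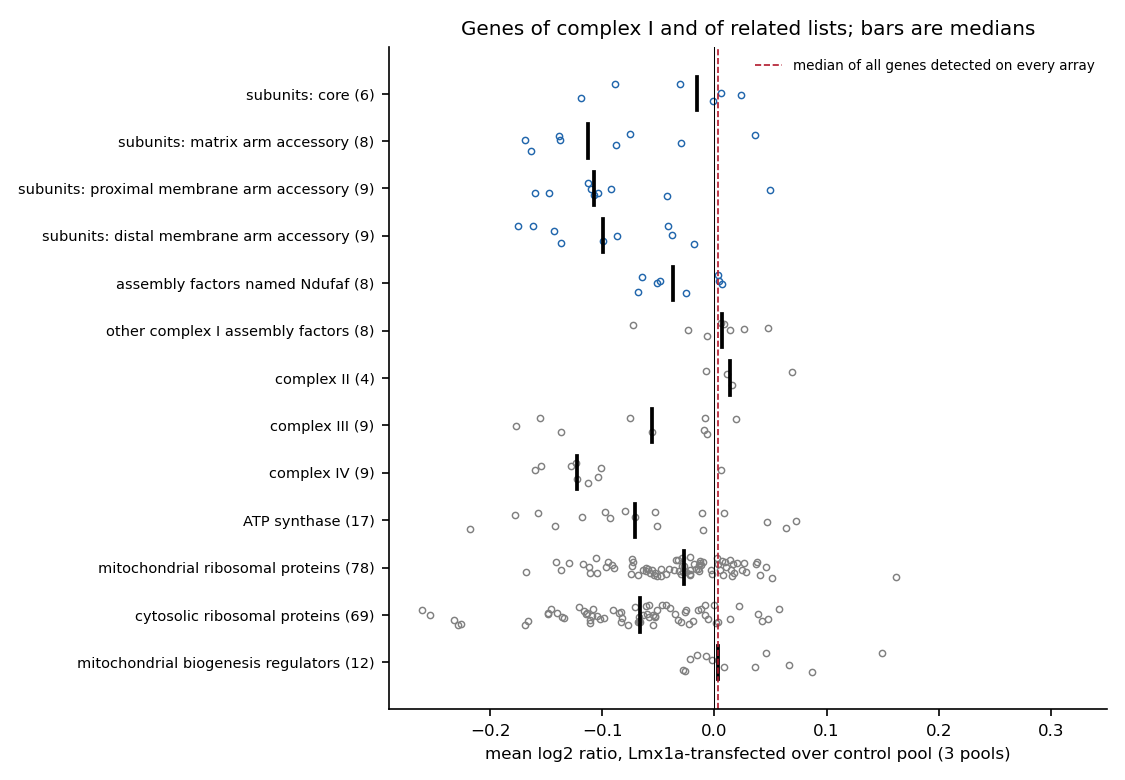
Mean log2 ratio of Lmx1a over control (x axis, 3 pools) for each gene of complex I and related lists (rows, number of genes in brackets); points are genes, black bars are medians and the dashed line is the median of 0.0032 over all detected genes. The accessory subunits and complex IV have medians of -0.12 to -0.10, while the core subunits, complex II and the biogenesis regulators lie near 0.

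Subunit probes were bright, with a median log2 brightness of 9.27, against 6.45 over all genes. Across the 35 subunit genes the log2 ratio was lower at higher brightness, with Pearson's r of -0.36 and Spearman's rho of -0.33, as a description over genes measured on the same arrays. Both were computed only under the main processing, which adds an offset of 50 to the signals in background correction. The part of that offset in the relation was not tested. Across the 9356 detected genes r was 0.04 and rho 0.06. The 35 subunit genes, unlike these, include Ndufs8 and Ndufab1, whose dim probes were not detected on every array. Among detected genes with a log2 brightness of 10 to 11, the median ratio of all 281 genes was 0.014 and that of the 10 subunits in that range was -0.10. Of those 10, 8 lay below the lower quartile of -0.045 for their range. At a brightness of 7 to 8, the median was 0.0030 over 3039 genes and -0.063 over 8 subunits, of which 4 lay below the lower quartile.

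**Figure D4:**
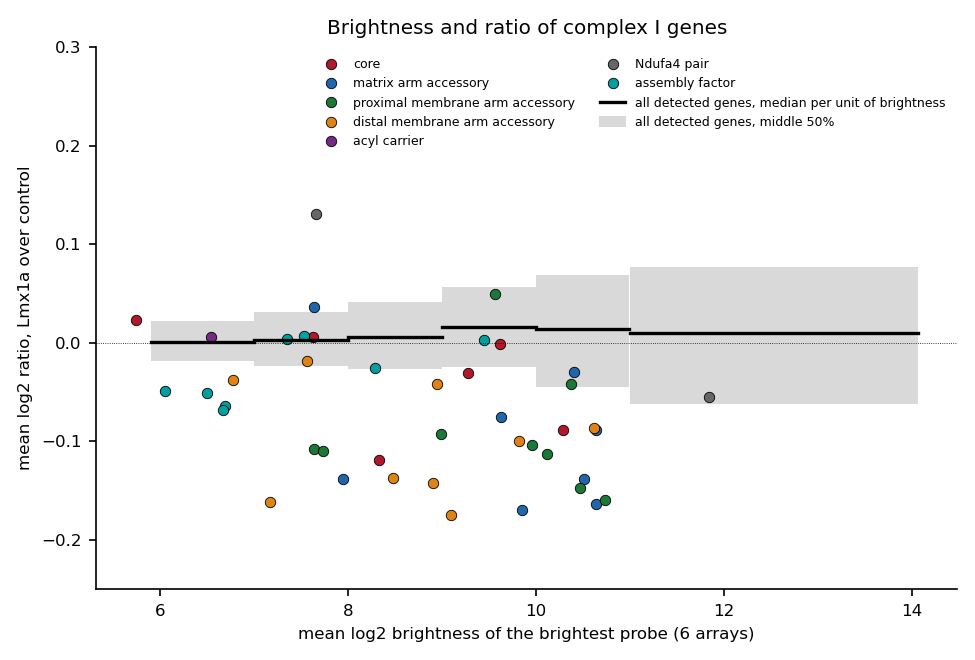
Mean log2 ratio of Lmx1a over control (y axis) against mean log2 brightness (x axis) for complex I genes, over the median and quartiles of all detected genes in ranges of brightness. Subunits of like brightness lie mostly under the quartile band, and 8 of 10 do so between 10 and 11.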

How the data were processed

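RNA from MN9D cells was measured on 6 two-colour arrays. The authors deposited scanner tables holding linear intensity per spot (spot mean and local background, per the file headers), and a table of log2 ratios whose scale, direction and centring were read by setting it against the scanner values. For the scanner and software, versions were not given in the sources used here. Groups came from titles, source names and dyes. Control spots (3223 of 34992) were left out. Names came from GEO's platform annotation, updated through RefSeq (GRCm38.p6, names only): of 26000 named probes, 23070 names were current, 2865 were updated and 65 kept as given, and 5769 probes had none.

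Background was corrected with normexp (offset 50), ratios were normalized by loess (span 0.3) within arrays, turned to Lmx1a over control and averaged over the 2 arrays of a pool. The mean of 3 replicates, and Cy5 over Cy3, were tested in R 4.3.3 with limma 3.58.1 (lmFit, then eBayes), and p-values were adjusted by Benjamini-Hochberg across every probe. Such p-values reflect only how these pools differ, which may be technical, and leave out the spread of the control. The number of arrays limits the precision. The limma fit alone was tested on simulated ratios. These had independent replicates and no dye effect or shared control pool, so they cannot show how those features act.

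The members and lists were chosen with earlier results of these data known. A gene was represented by its brightest probe. Values are given for the core subunits, Ndufa4 and Ndufa4l2, the Ndufaf genes, the 8 lowest and 4 highest detected subunits, and the 2 lowest and 1 highest detected genes of the respiratory, other assembly factor and biogenesis lists. Protein length was not analysed here. Alternatives were other background corrections, normalizations and variance models, the authors' values, single orientations, left-out replicates and the dimmest array, detected probes, all probes of a gene, unupdated names, and a fit of 6 arrays with a replicate block, to which a dye term was added after seeing the data, as were leaving out the dye-biased genes and taking the role groups over detected genes alone.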

Additional observations from a re-analysis of the deposited data

How the results depend on the processing

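The median of the complex I subunits kept its sign under each alternative. It was -0.0999 with plain background subtraction, -0.119 with median centring, -0.061 with Lmx1a in Cy5 only, -0.068 with Lmx1a in Cy3 only and -0.081 without the dye-biased subunit genes, and it ran between -0.0912 and -0.077 when 1 replicate was left out. The median of the assembly factors was -0.0783 with plain background subtraction, -0.0228 with names as the platform annotation gives them, and between -0.0521 and -0.0058 on leaving out 1 replicate. Of 324 values for 27 named genes under alternatives, 40 moved by 1 SD or more and 30 changed sign; 2 of these were genes of size 0.05 or more, Ndufa6 at 0.049 and Ndufb4 at 0.019 with Lmx1a in Cy3 only.

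No probe was called in the fit over 3 replicates, where 1978 had an unadjusted p under 0.05 and a positive ratio and 1765 a negative one. Calls numbered 49 with median centring (6 higher, 43 lower), 993 with Lmx1a in Cy5 only (340 and 653), 215 with Lmx1a in Cy3 only (133 and 82), 1 without the dimmest array and 0 to 1 without 1 replicate. In a single orientation dye bias stays in the ratio, so those calls cannot be told apart from dye effects. The 2 arrays of a pool share their RNA, so the replicate block is a pairing by design. It gave 342 calls (112 higher, 230 lower) at a consensus correlation of -0.287, and with a dye term 333 (95 and 238) at 0.0684. At these correlations the arrays of a pool had about the weight of separate replicates or more. The calls therefore rest in part on technical repeats. Dye-biased probes numbered 2160 (843 brighter in Cy5, 1317 in Cy3), against 4261 without background correction, 1 with plain subtraction, 24782 with median centring and 503 to 1514 without 1 replicate. The causes were not tested. Signal over background limits the dim probes, such as those of Ndufs8 and Ndufab1.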

Other observations

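Of 11 measured genes of iron-sulphur cluster assembly, which supplies the clusters of the core subunits, 9 lay below 0, with a median log2 ratio of Lmx1a over control of -0.016. They ran between -0.13 for Bola3, which helps to deliver clusters to target proteins, and 0.029 for Hspa9, the mitochondrial chaperone that acts in cluster transfer. Of 6 mitochondrial proteases 5 lay below 0, with a median of -0.048. They ran between -0.11 for Lonp1, a matrix protease, and 0.081 for Yme1l1, a protease of the inner membrane.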
